A study of Mus musculus with 9 samples.

Results

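The clustered protocadherins are cell-surface adhesion proteins of neurons encoded in 3 neighbouring gene clusters, alpha, beta and gamma. The members described here are all protein-coding genes whose GENCODE M21 symbol begins with Pcdha, Pcdhb, Pcdhga, Pcdhgb, Pcdhac or Pcdhgc followed by a member number. They were 57 of the 21853 genes measured, with 14 in the alpha, 22 in the beta and 21 in the gamma cluster. All lie on the plus strand of mouse chromosome 18 (build mm10), the alpha cluster at 36930184 to 37187661, the beta cluster at 37264938 to 37524479 and the gamma cluster at 37661793 to 37841873.

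Each member has its own promoter and its own large exon, which encodes the extracellular cadherin repeats, the transmembrane segment and the start of the cytoplasmic tail. In the alpha and gamma clusters this variable exon is spliced to constant exons that all members of the cluster share, while beta members have no constant exons. A neuron switches on a small and largely random set of alternate promoters with the help of the chromatin looping factors CTCF and cohesin, and the C-type members at the 3′ end of the alpha and gamma clusters (Pcdhac1, Pcdhac2, Pcdhgc3, Pcdhgc4 and Pcdhgc5) are used more uniformly. The combination on the surface lets the branches of a neuron recognise and avoid each other, and in mice gamma members are also needed for the survival of interneurons.

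The data are 9 poly(A) RNA-seq libraries from mouse brain, with 3 libraries in each of 3 groups. The HD-WNT5B group came from N171-82Q mice, a transgenic Huntington's disease line, given pAAV-GFAP(pro)-WNT5B-P2A-mCherry, an adeno-associated virus that expresses the Wnt ligand WNT5B and the fluorescent protein mCherry from the astrocyte promoter GFAP. The HD-Control group came from the same line given pAAV-GFAP(pro)-Control-mCherry, and the WT-Control group from wild-type mice given that control virus. All 3 groups therefore carry a virus with mCherry behind the GFAP promoter, and both HD groups carry the huntingtin transgene. The N171-82Q line expresses an N-terminal fragment of human huntingtin with an expanded glutamine tract from the prion protein promoter. According to the series text the virus went into the striatum, while the tissue label reads brain. Sex, age and animal of origin are not part of the labels, so p-values measure only the spread between these libraries, which may be technical.

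Values are the authors' normalized read numbers, not divided by gene length. From the smallest steps between values, 1 read was worth 1.61 to 2.14 in HD-WNT5B, 0.616 to 0.797 in HD-Control and 0.704 to 0.808 in WT-Control libraries, so that HD-WNT5B libraries held 37252300 to 52140700 reads, HD-Control libraries 69778900 to 90639300 and WT-Control libraries 67764600 to 77779400. The HD-WNT5B libraries stood apart: 14291 to 14588 genes were above 0 in them, against 17223 to 17349 in HD-Control and 17027 to 17132 in WT-Control libraries. Among genes averaging 100 or more, the SD of log2 values between replicates had a median of 0.233 in HD-WNT5B, against 0.0333 in HD-Control and 0.0393 in WT-Control libraries. Wnt5b itself had 184, 22.5 and 212 in the HD-WNT5B libraries, 63.8, 44.2 and 49.3 in HD-Control and 74.6, 63.8 and 57.7 in WT-Control libraries. HD-WNT5B replicate 2 was thus below every library of the other groups, the difference from HD-Control did not pass the test (log2 change 0.88, SE 0.73, adjusted p = 0.30, limma), and whether reads of the virus were counted under Wnt5b is not stated in these sources. The libraries labelled HD-WNT5B are described below with this limit. Summed over 8 striatal projection neuron markers, values were 308418 to 322020 in HD-WNT5B, 348597 to 353140 in HD-Control and 423370 to 425969 in WT-Control libraries, so that tissue with striatal neurons was present in every group.

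How a member's value arose differed between the clusters. Of the 22 beta members, 18 to 20 lay on whole reads in every library (tolerance 0.02 reads), whereas 0 to 1 of 14 alpha and 0 to 4 of 21 gamma members did. Every alpha member shares 2860 to 2864 exon bases with other members and has a median of 2494 of its own, and every gamma member shares 2116 to 3157 bases and has a median of 2637 of its own. Alpha and gamma values are therefore estimated splits of reads, part of which fall in exons common to a cluster. Own bases here are those not shared with other members. Some of them also belong to other annotated genes, such as Gm26672 for Pcdhga10, BC037039 for Pcdhgc3 and Gm10545 for Pcdha12. Among beta members, Pcdhb21 and Pcdhb22 share 455 exon bases with each other, and Pcdhb12 shares 1927 with the gene Gm37446. The symbol Pcdha11 is carried by 2 genes, which are named here with their identifiers.

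By level per length, Pcdhgc3, Pcdhgc4 and Pcdhgc5 ranked highest of all members in HD-Control and in WT-Control libraries, and Pcdhgc4, Pcdhac2 and Pcdha12 in HD-WNT5B libraries. In HD-WNT5B libraries Pcdhgc4 averaged 1043 per kb of transcript, Pcdhac2 495.8, Pcdha12 368.5, Pcdhgc3 231 and Pcdhgc5 204, while the medians per kb were 38.8 for gamma, 41.7 for beta and 37.4 for alpha members and 299.8 over all 15411 genes tested. In HD-Control libraries Pcdhgc3 averaged 2033 per kb, Pcdhgc4 1947, Pcdhgc5 1405 and Pcdhac2 651, with medians of 458.0 for gamma, 110.7 for beta and 53.7 for alpha members and 354.5 over all genes tested. In WT-Control libraries Pcdhgc5 averaged 2164 per kb, Pcdhgc3 1984, Pcdhgc4 1377 and Pcdhac2 593.7, with medians of 432.7 for gamma, 140.0 for beta and 67.5 for alpha members and 357.5 over all genes tested. Pcdhac1 was the lowest of the C-types, at 30.9 per kb in HD-WNT5B, 28.2 in HD-Control and 58.2 in WT-Control libraries.

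**Figure D1:**
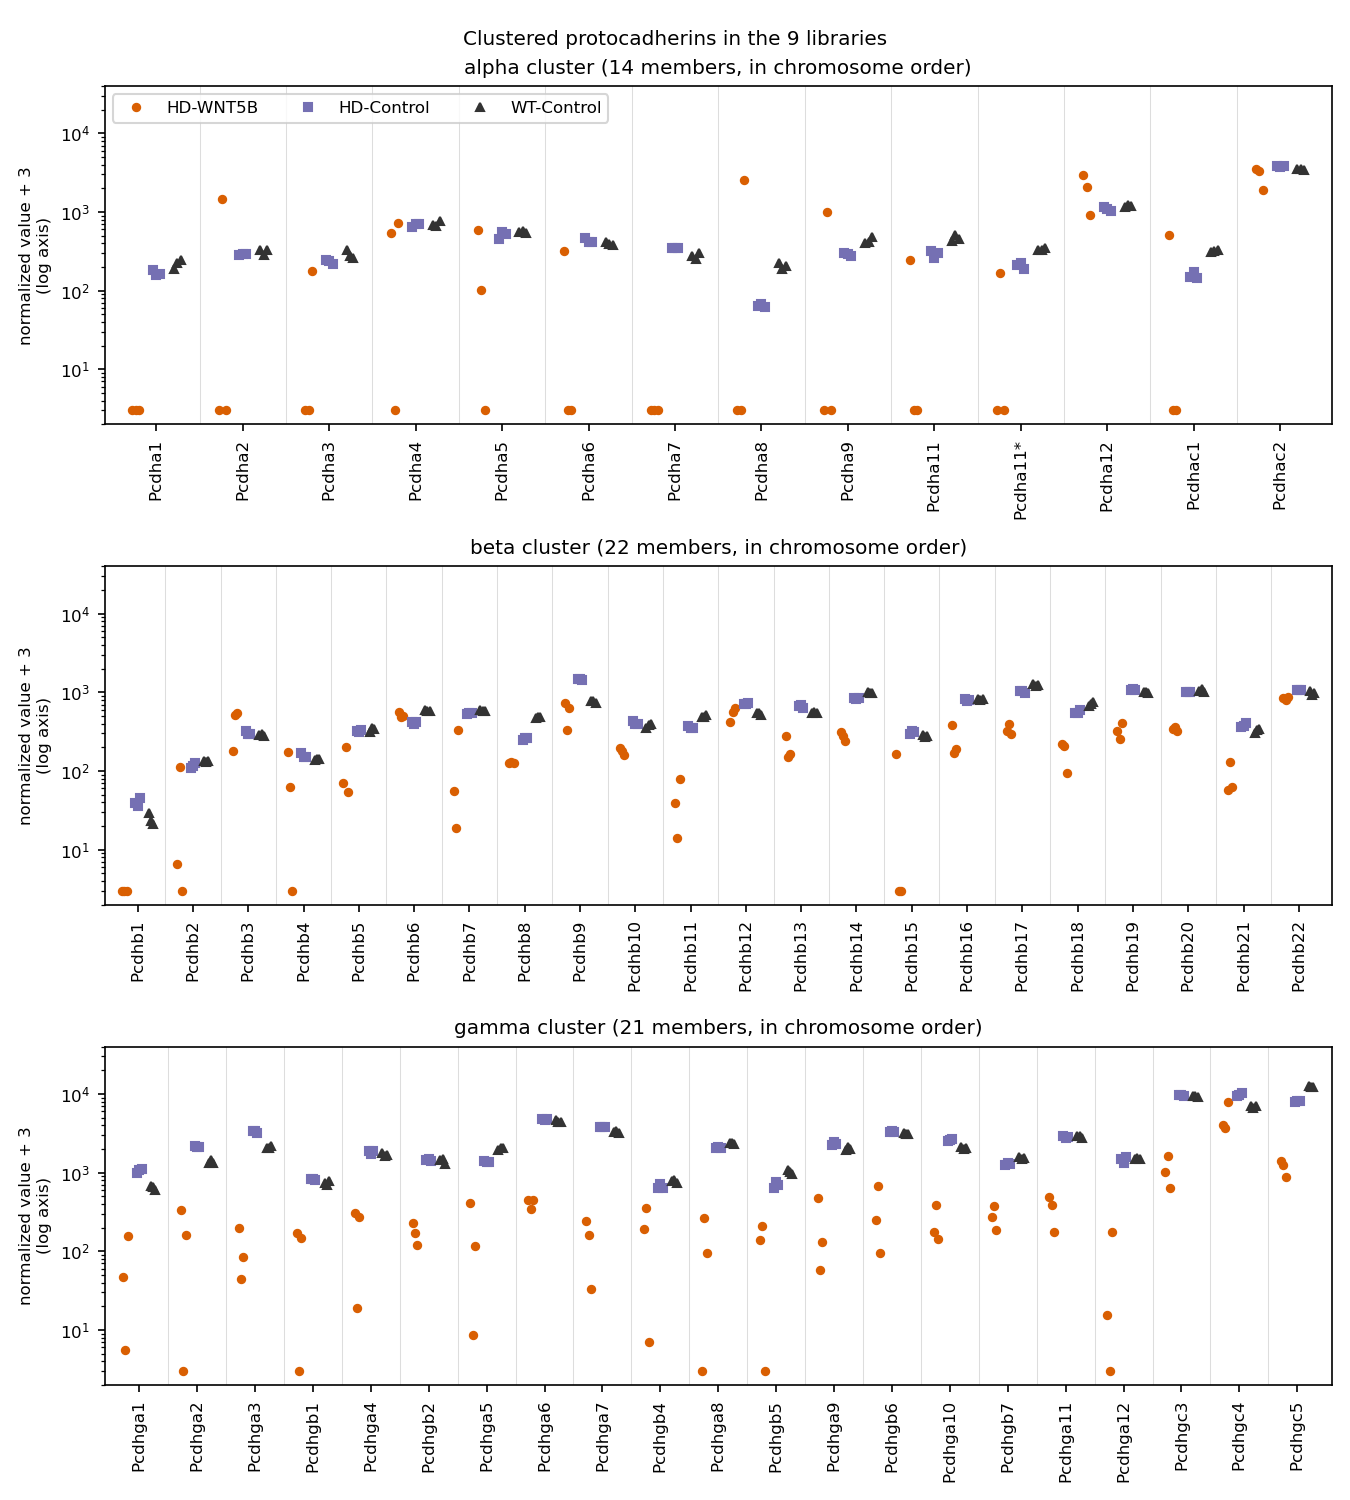
Normalized value plus 3 (log axis) of each clustered protocadherin in the 9 libraries, members in chromosome order within the alpha, beta and gamma clusters. Circles are HD-WNT5B, squares HD-Control and triangles WT-Control libraries; Pcdha11* is ENSMUSG00000102206, and points at the bottom are members below 1 read. HD-WNT5B libraries scatter and are lower for most beta and gamma members, while HD-Control and WT-Control libraries sit close together.

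The plot of the 9 libraries shows members in the order of their promoters. In HD-WNT5B libraries the median SD of log2 values between replicates was 3.77 for alpha, 0.543 for beta and 1.53 for gamma members (members with a mean of at least 100). Within HD-Control and within WT-Control the replicates nearly coincided: the same medians were 0.0763 for alpha, 0.0417 for beta and 0.0363 for gamma members in HD-Control, and 0.122, 0.042 and 0.0487 in WT-Control libraries.

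The first comparison, HD-Control against WT-Control, asks what the huntingtin transgene changes. The summed output of each cluster was nearly the same in both groups, but it was divided differently among the members. The median absolute log2 change was 0.21 over all members, against 0.39 over all genes tested, so members moved less than the typical gene. The summed alpha value was 8575 ± 104 in HD-Control and 9164 ± 84.3 in WT-Control libraries (SD, n = 3 each), a log2 ratio of -0.10. The summed beta value was 12798.5 ± 54.0 in HD-Control and 12624 ± 49.9 in WT-Control libraries (log2 ratio 0.02). The summed gamma value was 65193 ± 512 in HD-Control and 63663 ± 595 in WT-Control libraries (log2 ratio 0.03). With all libraries scaled to equal totals the beta ratio turned to -0.0066, with trimmed-mean factors to -0.0063 and with upper-quartile factors to -0.042, so that the beta sum has no stable direction; the gamma ratio turned to -0.028 with upper-quartile factors.

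The plot of summed values shows these sums for each library, with the gamma cluster split into a and b types and C-types. The a and b types of the gamma cluster summed to 37767 ± 191 in HD-Control and 34940 ± 452 in WT-Control libraries, and the gamma C-types to 27425 ± 334 in HD-Control and 28723 ± 352 in WT-Control libraries (SD, n = 3 each). The 12 alternate alpha members summed to 4588 ± 73.8 in HD-Control and 5353 ± 105 in WT-Control libraries. These splits of the clusters were chosen after the values were seen.

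**Figure D2:**
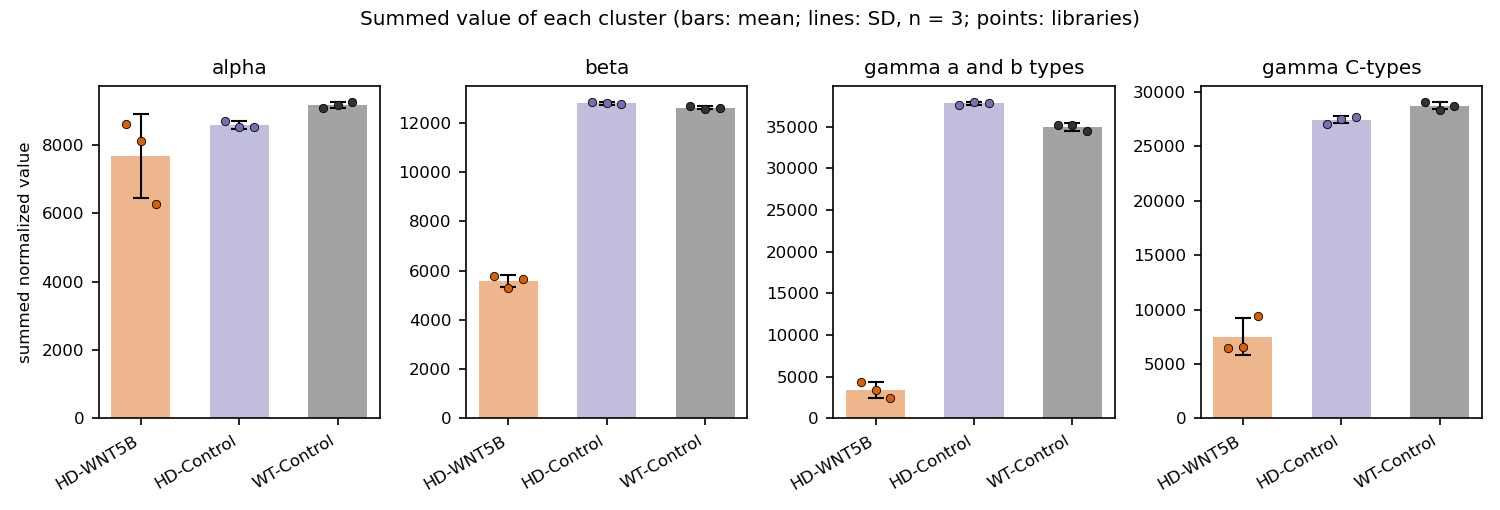
Summed normalized value of the alpha members, the beta members, the gamma a and b types and the gamma C-types in HD-WNT5B, HD-Control and WT-Control libraries (bars: mean, lines: SD, n = 3, points: libraries; axes start at 0). The HD-WNT5B bars are lower for beta and both gamma panels, and HD-Control and WT-Control bars are of similar height in every panel.

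Because the libraries of 1 group agree so closely, the redistribution can be read as the share of a cluster's sum that would have to move to turn one library into another. Between HD-Control and WT-Control libraries it was 8.24 to 10.06% of the alpha, 9.32 to 10.6% of the beta and 10.12 to 10.77% of the gamma sum. Between libraries of the same group it was 2.05 to 2.83% for alpha, 1.62 to 1.84% for beta and 1.32 to 1.69% for gamma in HD-Control, and 2.51 to 3.38%, 1.96 to 2.15% and 1.40 to 1.71% in WT-Control. For each cluster the lowest value between groups thus exceeded the highest within these groups. Such shares were not computed for other sets of genes.

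Of the 57 members, 4 passed limma over all 9 libraries at adjusted p < 0.05, against 45.1% of all genes tested; all 57 had passed the filter on low values. They were 3 of 22 beta members, 1 higher (24.5% of all genes) and 2 lower (20.7%), and 1 of 21 gamma members, lower. None of the 14 alpha members passed in limma, and 0 had an unadjusted p < 0.05. This fit takes 1 spread from all 9 libraries, including the scatter of the HD-WNT5B group. Fitted over the 6 libraries of the groups compared, 40 members passed (10 alpha, 13 beta and 17 gamma), 20 higher and 20 lower, against 83.8% of all genes (43.5% higher and 40.2% lower). With a weight per group 34 passed, against 82.9%, and without HD-WNT5B replicate 1, 2 or 3 the count was 11, 11 or 13. The 3 libraries of a group did not overlap those of the other for 46 members, against 84% of all genes. In each of these readings the share of members was no higher than that of all genes.

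Among the C-type members, Pcdhgc5 and Pcdhgc4 went in opposite directions. Pcdhgc5, which in mice comes on late in postnatal brain, had 7957, 8177 and 8212 in HD-Control libraries, against 12754, 12364 and 12392 in WT-Control libraries. All HD-Control libraries were lower, and it fell by 0.62 on the log2 scale (SE 0.15, adjusted p = 0.0087, limma). Pcdhgc4, the gamma member needed for neuronal survival in mice, had 9518, 9674 and 10149.8 in HD-Control libraries, against 6977, 6661 and 7116 in WT-Control libraries. Every HD-Control library was higher, with a log2 change of 0.50 (SE 0.24, adjusted p = 0.13 over 9 libraries, 2.2e-13 over the 6 libraries of these groups, and 8.1e-05 without HD-WNT5B replicate 3). Pcdhgc3, which in mice promotes dendrite branching through Axin1, had 9582, 9659 and 9347 in HD-Control libraries, against 9343, 9345 and 9216 in WT-Control libraries, a log2 change of 0.03 (SE 0.27, adjusted p = 0.94).

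The exchange is clearest as a ratio within a library, which needs no scaling between libraries. Pcdhgc4 over Pcdhgc5 was 1.20, 1.18 and 1.24 in HD-Control libraries and 0.547, 0.539 and 0.574 in WT-Control libraries. Pcdhgc5 made up 12.3 to 12.5% of the gamma sum in HD-Control and 19.5 to 19.8% in WT-Control libraries, and Pcdhgc4 14.7 to 15.5% in HD-Control and 10.5 to 11.3% in WT-Control libraries. This ratio was chosen after the values were seen, and both members share the gamma constant exons.

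**Figure D3:**
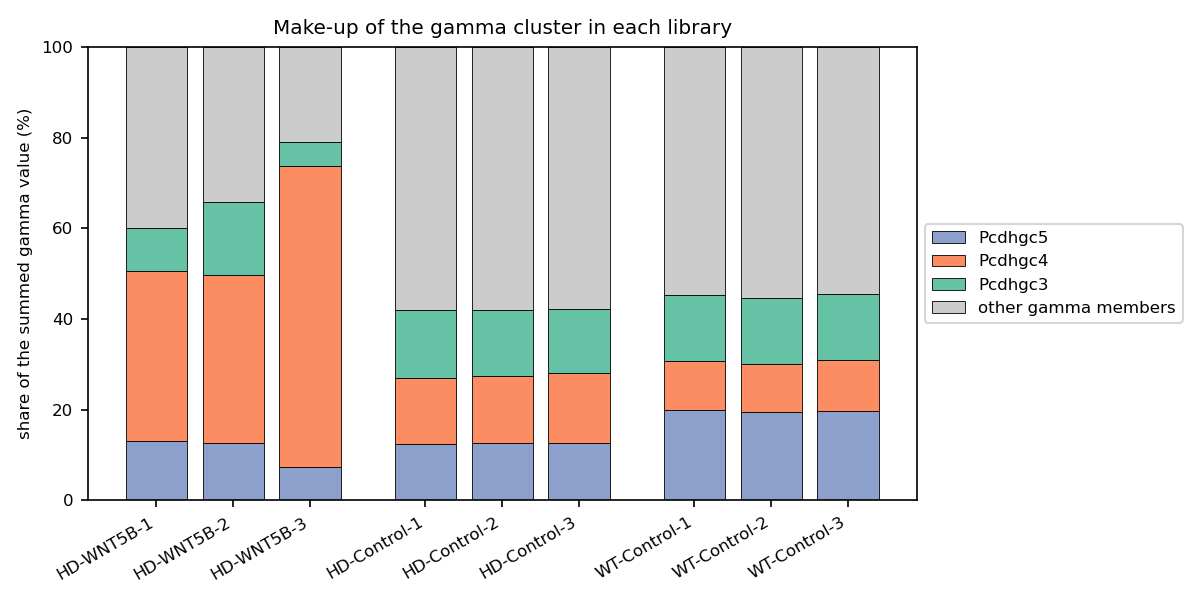
Share of the summed gamma value (%) held by Pcdhgc5, Pcdhgc4, Pcdhgc3 and the other 18 gamma members, stacked for each of the 9 libraries. Pcdhgc4 holds 37.1 to 66.5% in HD-WNT5B libraries, and Pcdhgc5 holds 12.3 to 12.5% in HD-Control and 19.5 to 19.8% in WT-Control libraries.

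The stacked plot of the gamma cluster shows that the summed share of the 3 C-types moved less than those of Pcdhgc4 and Pcdhgc5. The C-types held 41.9 to 42.3% of the gamma sum in HD-Control libraries and 44.7 to 45.5% in WT-Control libraries.

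The alpha C-types lie at the 3′ end of their cluster. Pcdhac2, which in mice spaces the axons of serotonin neurons, had 3896, 3744 and 3862 in HD-Control libraries, against 3474, 3561 and 3453 in WT-Control libraries. All HD-Control libraries were higher (log2 change 0.13, SE 0.20, adjusted p = 0.64 over 9 libraries, 4.8e-05 over 6, and 0.0084 without HD-WNT5B replicate 3). Pcdhac1, the other alpha C-type, had 144, 172 and 143 in HD-Control libraries, against 306, 313 and 327 in WT-Control libraries. Every HD-Control library was below every WT-Control library (log2 change -1.03, SE 1.73, adjusted p = 0.68 over 9 libraries, 1.1e-09 over 6, and 9.3e-04 without HD-WNT5B replicate 1).

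The 3 beta members that passed share no exon bases with other genes. Beta protocadherins consist of an extracellular and transmembrane part with a short tail and no constant region. Pcdhb8 had 247, 256 and 262 in HD-Control libraries, against 465, 479 and 486 in WT-Control libraries. It fell by 0.89 on the log2 scale with no overlap (SE 0.14, adjusted p = 0.00099, limma). The adjacent Pcdhb9 had 1461, 1489 and 1419.7 in HD-Control libraries, against 772, 764 and 733 in WT-Control libraries. It rose by 0.94 (SE 0.26, adjusted p = 0.018), the largest called change of any member in this comparison; without any 1 library of these 2 groups its adjusted p was 0.0501 to 0.0573 with a log2 change of 0.92 to 0.96. Pcdhb6 had 418, 398 and 422 in HD-Control libraries, against 600.3, 581 and 571 in WT-Control libraries, and fell by 0.50 (SE 0.11, adjusted p = 0.0068).

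The other beta members named for their level or for later comparisons moved less. Pcdhb17, the member with the largest share of the beta sum in each WT-Control library, had 1033, 1046 and 978 in HD-Control libraries, against 1257, 1213 and 1252 in WT-Control libraries. Its groups did not overlap (log2 change -0.28, SE 0.12, adjusted p = 0.080 over 9 libraries, 1.5e-06 over 6, and 0.0053 and 0.026 without HD-WNT5B replicates 2 and 3). Pcdhb14 had 855, 829.6 and 855 in HD-Control libraries, against 1019.8, 986 and 985 in WT-Control libraries, again without overlap (log2 change -0.24, SE 0.12, adjusted p = 0.14, and 0.028 and 0.025 without HD-WNT5B replicates 1 and 3). In HD-Control libraries it was Pcdhb9 that held the largest share of the beta sum, at 11.1 to 11.6%, against 5.81 to 6.09% in WT-Control libraries.

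Neither Pcdhb22 nor Pcdhb20 passed over 9 libraries. Pcdhb22 had 1076, 1057 and 1052 in HD-Control libraries, against 1028, 911 and 985 in WT-Control libraries (log2 change 0.12, SE 0.08, adjusted p = 0.25 over 9 libraries and 0.015 over 6), with every HD-Control library higher. Pcdhb20 had 1018, 1018 and 1019 in HD-Control libraries, against 1047, 1084 and 1018 in WT-Control libraries, where the groups overlapped (log2 change -0.04, SE 0.09, adjusted p = 0.74 over 9 libraries and 0.31 over 6). Pcdhb1, the member with the lowest level per length in the beta cluster, had 36.7, 32.4 and 41.9 in HD-Control libraries, against 26.0, 20.2 and 18.2 in WT-Control libraries, and is named after its values were seen (log2 change 0.71, SE 0.28, adjusted p = 0.065 over 9 libraries and 0.0030 over 6).

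**Figure D4:**
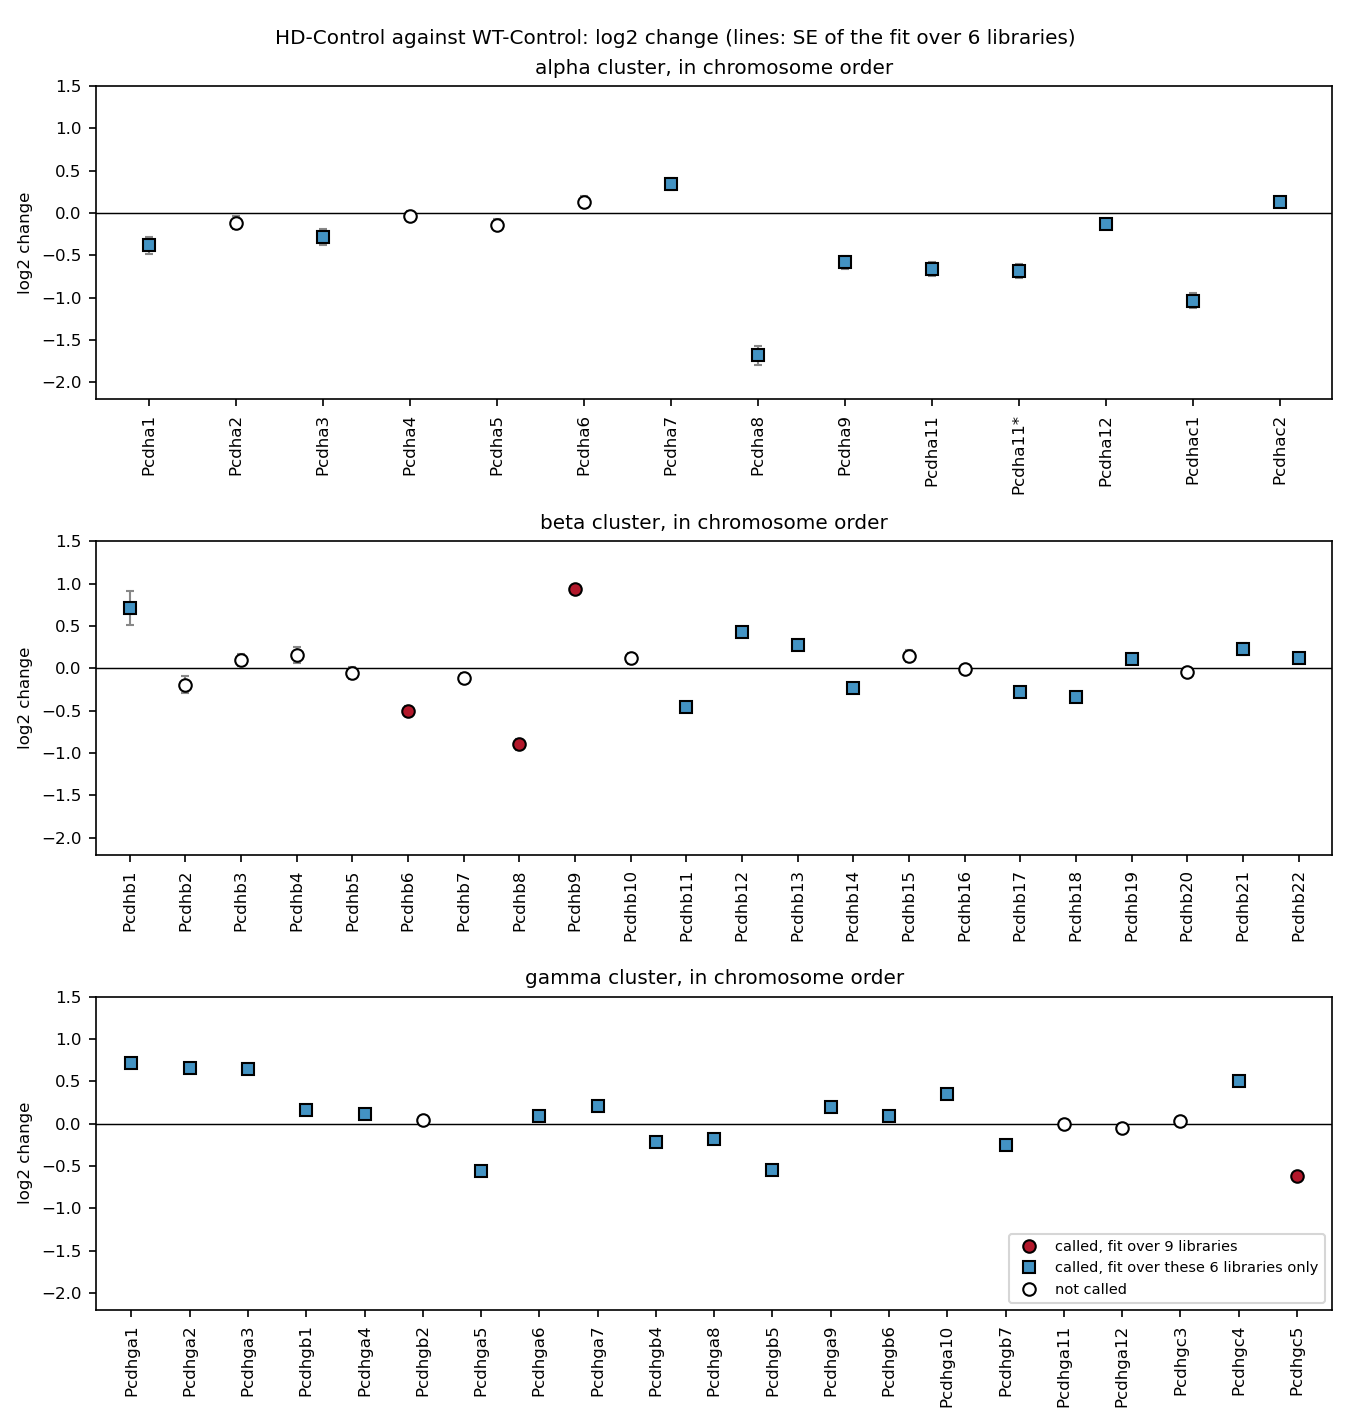
Log2 change of each member in HD-Control against WT-Control libraries, in chromosome order within each cluster (lines: SE of the fit over the 6 libraries of these groups). Filled circles passed limma over 9 libraries, squares passed it over the 6 libraries only, and open circles passed neither; Pcdha11* is ENSMUSG00000102206. Beta and gamma members lie on both sides of 0, and the 6 alpha members from Pcdha8 to Pcdhac1 lie below it.

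The plot of HD-Control against WT-Control changes shows the pattern along the clusters. In the alpha cluster 11 of 14 members had a negative and 3 a positive log2 change, with a median of -0.21, against 0.02 over all genes tested. The 6 members from Pcdha8 to Pcdhac1 in chromosome order were all below 0. Pcdha12, the most abundant alternate alpha member by level per length, had 1152, 1078 and 1040.0 in HD-Control libraries, against 1170.4, 1217 and 1177 in WT-Control libraries (log2 change -0.12, SE 0.35, adjusted p = 0.81 over 9 libraries and 0.0097 over 6). Pcdha11 ENSMUSG00000102206 had 209.9, 224 and 187 in HD-Control libraries, against 329, 326 and 344 in WT-Control libraries (log2 change -0.68, SE 1.37, adjusted p = 0.73 over 9 libraries, 1.5e-07 over 6, and 0.0046 without HD-WNT5B replicate 2). For this member every HD-Control library was lower.

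Towards the 5′ end of the alpha cluster, from Pcdha1 to Pcdha7, the changes went in both directions. Pcdha7 had 348, 344 and 351 in HD-Control libraries, against 274, 249.6 and 298 in WT-Control libraries (log2 change 0.34, SE 0.21, adjusted p = 0.23 over 9 libraries and 2.9e-04 over 6). Pcdha1 had 179, 156 and 160.4 in HD-Control libraries, against 185, 222 and 245 in WT-Control libraries (log2 change -0.38, SE 0.24, adjusted p = 0.23 over 9 libraries and 0.0019 over 6). Neither pair of groups overlapped. Pcdha6 had 463, 414 and 412 in HD-Control libraries, against 407, 387 and 378 in WT-Control libraries (log2 change 0.13, SE 1.58, adjusted p = 0.96). The largest ratio of all members was that of Pcdha8, named after its values were seen, with 61.3, 64.3 and 59.6 in HD-Control libraries, against 225, 186 and 204 in WT-Control libraries (log2 change -1.68, SE 2.27, adjusted p = 0.60 over 9 libraries and 2.0e-11 over 6).

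In the gamma cluster 14 of 21 members had a positive and 7 a negative log2 change, with a median of 0.09. The first 3 genes in chromosome order had the highest changes of the cluster and are named after their values were seen. Pcdhga1 had 998, 1084 and 1095 in HD-Control libraries, against 671, 653 and 601 in WT-Control libraries. Pcdhga2 had 2204, 2118 and 2119.6 in HD-Control libraries, against 1322, 1434 and 1337 in WT-Control libraries. Pcdhga3 had 3336, 3359.5 and 3192 in HD-Control libraries, against 2068, 2068 and 2206 in WT-Control libraries. Their log2 changes were 0.72, 0.65 and 0.64 (adjusted p = 0.61, 0.76 and 0.28 over 9 libraries, and 5.8e-11, 7.5e-13 and 1.0e-13 over 6), with no overlap for any of them. Pcdhga6, the most abundant alternate gamma member by level per length, had 4740.1, 4703 and 4796 in HD-Control libraries, against 4611, 4426 and 4379.9 in WT-Control libraries (log2 change 0.09, SE 0.10, adjusted p = 0.55 over 9 libraries and 0.0021 over 6). Pcdhgb2 had 1449, 1478 and 1408 in HD-Control libraries, against 1452, 1495 and 1285 in WT-Control libraries, and overlapped (log2 change 0.04, SE 0.21, adjusted p = 0.91).

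Genes that act on or with the clustered protocadherins were read in the same fit. Among 21 genes of promoter choice and chromatin, 9 rose, 2 fell and 10 did not pass in HD-Control against WT-Control libraries, where 24.5% of all genes rose and 20.7% fell. Ctcf, which binds the promoters and the enhancer of the clusters, had 6148, 5884 and 5927 in HD-Control libraries, against 4403, 4446 and 4460.4 in WT-Control libraries (log2 change 0.43, SE 0.04, adjusted p = 3.4e-05). Mau2, part of the cohesin loader, rose by 0.84 (SE 0.10, adjusted p = 2.0e-04), and Trim28, a corepressor, by 0.75 (SE 0.08, adjusted p = 1.0e-04). Of 19 intracellular and surface partners, 8 rose, 5 fell and 6 did not pass. Wasf1, a subunit of the WAVE actin regulatory complex, rose by 0.64 (SE 0.04, adjusted p = 1.0e-05), Axin1 rose by 0.69 (SE 0.05, adjusted p = 1.4e-05), and Marcks, a membrane-bound actin regulator downstream of gamma protocadherins, fell by 0.74 (SE 0.04, adjusted p = 3.3e-06).

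The non-clustered protocadherins are related adhesion proteins encoded outside the 3 clusters. Of 12, 0 rose, 4 fell and 8 did not pass in limma (20.7% of all genes fell); these were also the 4 with an unadjusted p < 0.05. Pcdh1 had 7143, 7366 and 7380.3 in HD-Control libraries, against 11729.9, 11548 and 11148 in WT-Control libraries (log2 change -0.65, SE 0.04, adjusted p = 9.5e-06). Pcdh7 fell by 0.75 (SE 0.09, adjusted p = 1.8e-04) and Pcdh15 fell by 0.78 (SE 0.12, adjusted p = 0.0011). Of the 26 protein-coding genes between the clusters or within 300 kb of them, 22 were tested. Of these, 9 rose (24.5% of all genes did), 2 fell and 11 did not pass. Diaph1, a formin next to the gamma cluster, rose by 0.70 (SE 0.03, adjusted p = 2.0e-06).

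Markers of cell types moved in the same comparison, where 24.5% of all genes rose and 20.7% fell. Of 8 general neuron markers 6 fell and 0 rose (summed value 290345 to 290848 in HD-Control, against 348439 to 350428 in WT-Control libraries), and of 8 cortical excitatory neuron markers 7 fell and 0 rose (11507.5 to 11618 in HD-Control, against 25400.4 to 26214 in WT-Control libraries). All 8 microglia markers fell (8678 to 8786 in HD-Control, against 25112 to 25325 in WT-Control libraries), as did 7 of 8 oligodendrocyte markers and 4 of 6 endothelium markers, with 0 higher in either list. Of 8 astrocyte markers 5 fell and 2 rose (Gfap and Gjb6), and of 8 striatal projection neuron markers 7 fell and 1 rose (Ppp1r1b). Their part in the redistribution within the clusters was not tested. In bulk tissue fewer cells of a type and less RNA per cell cannot be told apart.

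The second comparison, HD-WNT5B against HD-Control, asks what the WNT5B virus changes in HD mice. Gamma and most beta members were lower in the HD-WNT5B libraries, while the alpha sums of the 2 groups overlapped. Of the summed values, that of the gamma a and b types fell most. The summed gamma value was 10920 ± 990 in HD-WNT5B and 65193 ± 512 in HD-Control libraries (SD, n = 3 each), a log2 ratio of -2.58. The gamma a and b types were 11.1-fold lower (3418 ± 916 in HD-WNT5B and 37767 ± 191 in HD-Control libraries), and the gamma C-types 3.66-fold lower (7502 ± 1687 in HD-WNT5B and 27425 ± 334 in HD-Control libraries). By group means Pcdhgc4 was 1.87-fold, Pcdhgc5 6.88-fold and Pcdhgc3 8.8-fold lower, so the C-type sum rests largely on Pcdhgc4. The summed beta value was 5575 ± 243 in HD-WNT5B and 12798.5 ± 54.0 in HD-Control libraries, a log2 ratio of -1.20. The summed alpha value was 7661 ± 1231 in HD-WNT5B and 8575 ± 104 in HD-Control libraries, a log2 ratio of -0.16.

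With all libraries scaled to equal totals these ratios were -3.13 for gamma, -1.75 for beta and -0.72 for alpha, since that scale moves the median of all genes by -0.53. The ratio of clusters within a library does not depend on the scale. The gamma sum was 1.26, 1.23 and 1.91 times the alpha sum in HD-WNT5B libraries and 7.43, 7.68 and 7.70 times in HD-Control libraries.

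Of the 57 members 47 passed (6 alpha, 20 beta and 21 gamma), against 77.5% of all genes tested. Of these, 46 were lower (6 alpha, 19 beta and 21 gamma), against 41.7% of all genes, and 1 beta member was higher, against 35.8%. At least 2-fold lower and called were 43 members (6 alpha, 17 beta and 20 gamma), against 28.8% of all genes. The median log2 change was -3.93 over gamma, -1.77 over beta and -3.71 over alpha members, against -0.23 over all genes; the alpha median rests on members below 1 read, whose fitted change depends on the added 3. All 21 gamma members and 18 beta members were lower without overlap of the groups, against 42.5% of all genes.

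**Figure D5:**
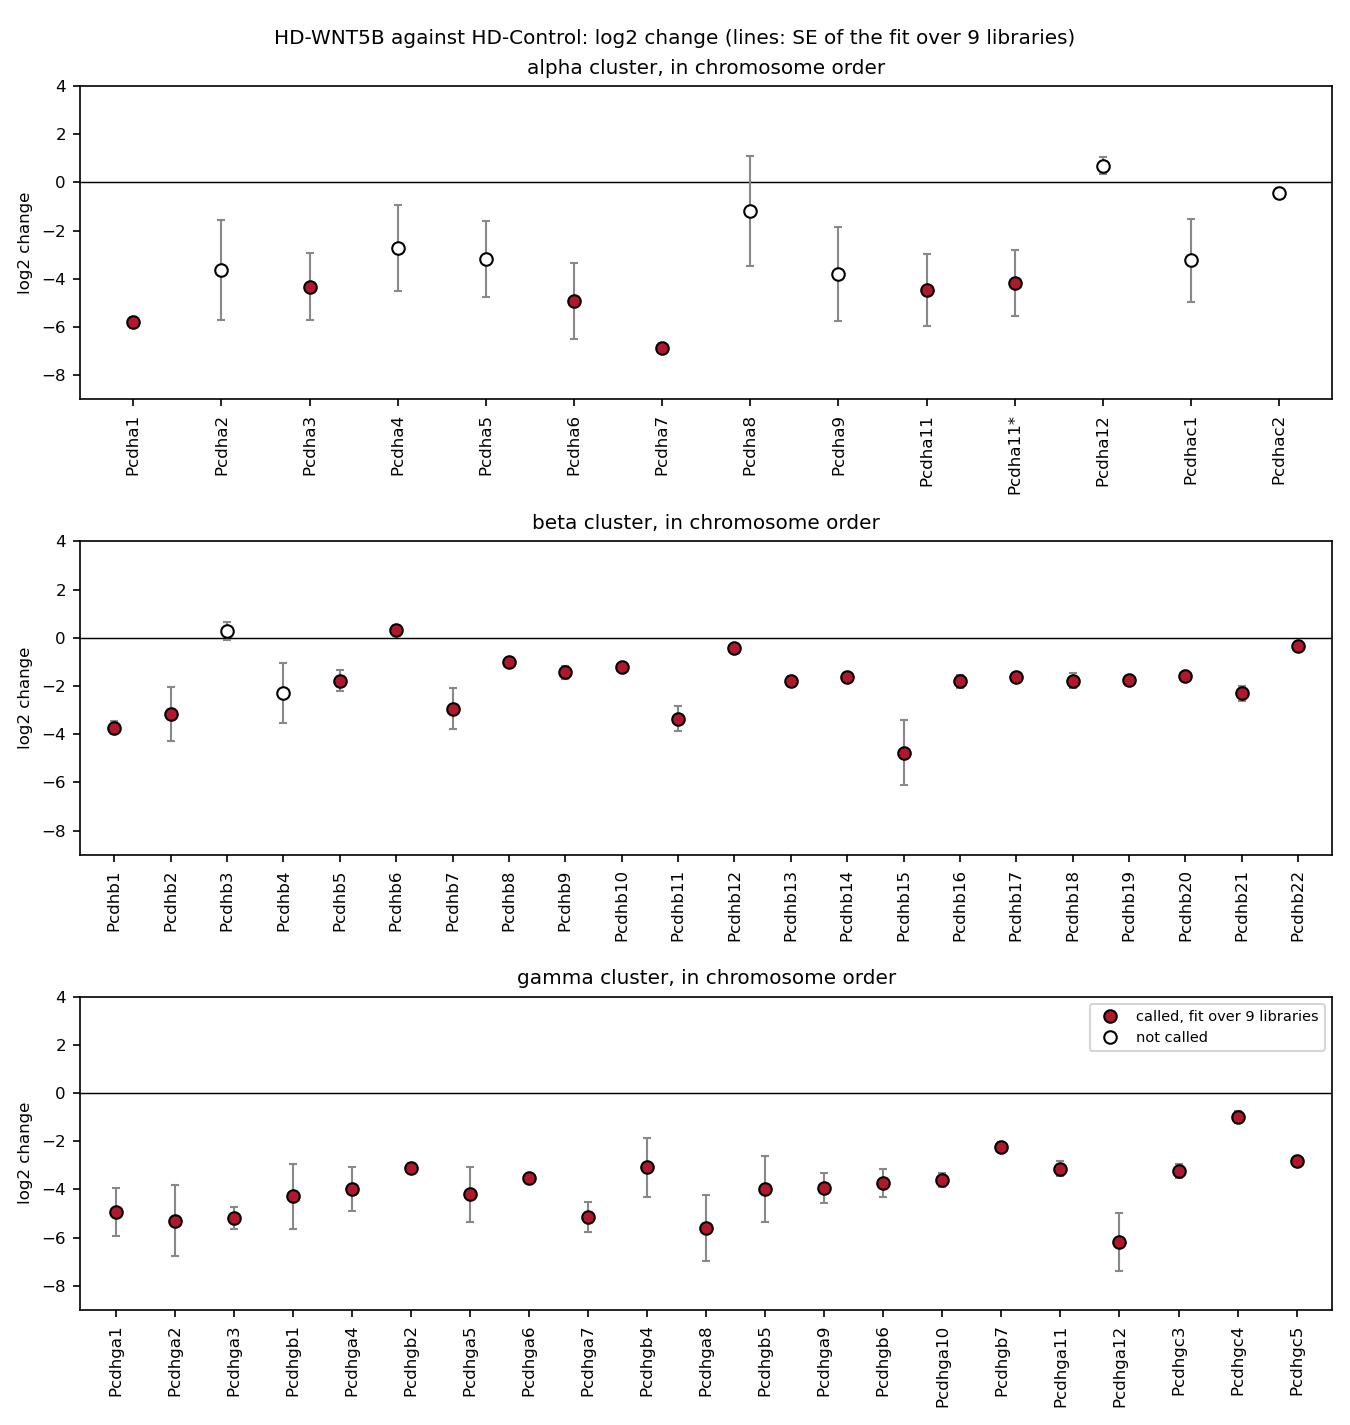
Log2 change of each member in HD-WNT5B against HD-Control libraries, in chromosome order within each cluster (lines: SE of the fit over 9 libraries). Filled circles passed limma and open circles did not; Pcdha11* is ENSMUSG00000102206. All 21 gamma members lie below 0, with Pcdhgc4 nearest to it, and 20 of 22 beta members lie below 0.

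In the plot of HD-WNT5B against HD-Control changes the gamma cluster is the most uniform in direction. Pcdhgc4 had 4074, 3700.4 and 7943 in HD-WNT5B libraries, against 9518, 9674 and 10149.8 in HD-Control libraries. It fell by 0.99 (SE 0.24, adjusted p = 0.0054), the smallest fall in the cluster, and held 37.6, 37.1 and 66.5% of the gamma sum in the HD-WNT5B libraries, against 14.7, 14.8 and 15.5% in HD-Control libraries. Pcdhgc5 had 1411, 1253 and 875 in HD-WNT5B libraries, against 7957, 8177 and 8212 in HD-Control libraries, and fell by 2.81 (SE 0.15, adjusted p = 2.4e-07). Pcdhgc3 had 1006, 1613 and 631 in HD-WNT5B libraries, against 9582, 9659 and 9347 in HD-Control libraries, and fell by 3.24 (SE 0.27, adjusted p = 5.9e-06).

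These 3 C-types share the same constant exons and lie side by side, yet their balance differed between the groups. Pcdhgc4 over Pcdhgc5 was 2.89, 2.95 and 9.08 in HD-WNT5B libraries, against 1.20, 1.18 and 1.24 in HD-Control libraries. The highest ratio was that of HD-WNT5B replicate 3.

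Summed, the a and b types of the gamma cluster, each with its own promoter under choice, fell more than the C-types. Not each of them did so: Pcdhgb2 fell by 3.11, less than Pcdhgc3 at 3.24. Pcdhga6 had 451, 341 and 448 in HD-WNT5B libraries, against 4740.1, 4703 and 4796 in HD-Control libraries. Pcdhga6 fell by 3.52 with little scatter (SE 0.10, adjusted p = 5.9e-09). Pcdhgb2 had 228, 168 and 117 in HD-WNT5B libraries, against 1449, 1478 and 1408 in HD-Control libraries, and fell by 3.11 (SE 0.21, adjusted p = 1.4e-06). Across the 18 a and b types the fitted change ranged from -6.18 to -2.25. The lowest was that of a member below 1 read in HD-WNT5B replicate 2, so its size depends on the added 3. In HD-WNT5B replicates 1, 2 and 3, 1, 3 and 1 gamma members were below 1 read, against 0 in every HD-Control library.

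The fitted change of the beta members ranged from -4.77 to 0.32. The lowest was that of a member at 0 in HD-WNT5B replicates 2 and 3, so its size depends on the added 3. Pcdhb20 had 342, 359.8 and 322 in HD-WNT5B libraries, against 1018, 1018 and 1019 in HD-Control libraries, and fell by 1.57 (SE 0.09, adjusted p = 3.9e-07). Pcdhb17 had 315, 389 and 296 in HD-WNT5B libraries, against 1033, 1046 and 978 in HD-Control libraries, and fell by 1.61 (SE 0.12, adjusted p = 2.0e-06). Pcdhb14 had 313, 275 and 240.2 in HD-WNT5B libraries, against 855, 829.6 and 855 in HD-Control libraries, and fell by 1.61 (SE 0.12, adjusted p = 2.1e-06). None of the 3 overlapped between the groups. With the trend on transcript length and GC content removed, the log2 changes were -1.11 for Pcdhb20, -0.95 for Pcdhb17 and -0.34 for Pcdhb14 (adjusted p = 3.9e-06, 4.5e-05 and 0.013).

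Both beta members that differed most between HD-Control and WT-Control were also lower here. Pcdhb9 had 737, 326 and 633 in HD-WNT5B libraries, against 1461, 1489 and 1419.7 in HD-Control libraries, and fell by 1.44 (SE 0.26, adjusted p = 8.9e-04). Pcdhb8 had 123, 128 and 122 in HD-WNT5B libraries, against 247, 256 and 262 in HD-Control libraries, and fell by 1.01 (SE 0.14, adjusted p = 1.6e-04). HD-Control libraries enter this comparison and the one with WT-Control, so the values of the members are set side by side and not related to each other.

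A few beta members changed less or in the other direction. Pcdhb22, which holds the largest share of the beta sum in each HD-WNT5B library (14.7 to 15.2%), had 849, 798 and 858 in HD-WNT5B libraries, against 1076, 1057 and 1052 in HD-Control libraries. It fell by 0.35 (SE 0.08, adjusted p = 0.0037), but after removal of the length and GC trend its change was 0.56, in the other direction (adjusted p = 6.4e-04), and with a weight per group its adjusted p was 0.16. Pcdhb6 was the 1 member called higher over 9 libraries, with 565, 485 and 495 in HD-WNT5B libraries, against 418, 398 and 422 in HD-Control libraries (log2 change 0.32, SE 0.11, adjusted p = 0.030). With the length and GC trend removed, Pcdhb6, Pcdhb22 and Pcdha12 passed as higher (3 members, against 36.1% of all genes). The call of Pcdhb6 ended over the 6 libraries of these groups (adjusted p = 0.12), with a weight per group (0.30) and with 1 library of the HD-Control or WT-Control group left out (adjusted p = 0.055 to 0.099), and with equal totals the change was -0.24.

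At the other end, some beta members were not detected. Pcdhb1 was listed at 0 in all 3 HD-WNT5B libraries, against 36.7, 32.4 and 41.9 in HD-Control libraries. Pcdhb15, named after its values were seen, had 161 in HD-WNT5B replicate 1 and 0 in the other two, against 294, 319 and 308 in HD-Control libraries (adjusted p = 0.011). In all, 1, 2 and 4 of the 22 beta members were below 1 read in HD-WNT5B replicates 1, 2 and 3, against 0 in every HD-Control library.

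In the alpha cluster the members above 1 read differed between the HD-WNT5B libraries. The alpha sum was 8594.5, 8121 and 6266 in HD-WNT5B libraries, against 8695, 8516 and 8514 in HD-Control libraries, with replicate 3 the lowest. The 12 alternate alpha members summed to 4593, 4768 and 4360.4 in HD-WNT5B libraries, against 4655, 4601 and 4509 in HD-Control libraries, yet 7, 8 and 9 of the 14 alpha members were below 1 read in HD-WNT5B replicates 1, 2 and 3, against 0 in every HD-Control library. Pcdhac2 and Pcdha12 alone were above 1 read in all 3.

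The members with values above 1 read differed from library to library, as a few examples chosen after their values were seen show. Alpha values are estimated splits of reads that fall partly in shared exons. The part of that splitting in these differences was not tested. In replicate 1, Pcdha4 had 535, Pcdha5 586 and Pcdhac1 502. In replicate 2, Pcdha2 had 1446 and Pcdha9 986, while Pcdha4 and Pcdhac1 were below 1 read. In replicate 3, Pcdha8 had 2553, which was 40.7% of the alpha sum, and Pcdha2, Pcdha9 and Pcdhac1 were below 1 read. In HD-Control libraries Pcdha8 had 61.3, 64.3 and 59.6. Between HD-WNT5B libraries 32.6 to 55.0% of the alpha sum was placed on different members, against 2.05 to 2.83% between HD-Control libraries. For beta this share was 14.99 to 19.3% between HD-WNT5B and 1.62 to 1.84% between HD-Control libraries, and for gamma it was 19.9 to 38.7% between HD-WNT5B and 1.32 to 1.69% between HD-Control libraries.

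The alpha members named by rule follow this pattern. Pcdhac2 had 3499, 3353 and 1906 in HD-WNT5B libraries, against 3896, 3744 and 3862 in HD-Control libraries (log2 change -0.44, SE 0.20, adjusted p = 0.071). Without HD-WNT5B replicate 3 its change was -0.16 (adjusted p = 0.0034), and without replicate 1 or 2 it was -0.60 or -0.57 (adjusted p = 0.027 and 0.043). With a weight per group it passed (adjusted p = 0.014), and with the length and GC trend removed its change was 0.10 (adjusted p = 0.62). Pcdha12 had 2912, 2069 and 916 in HD-WNT5B libraries, against 1152, 1078 and 1040.0 in HD-Control libraries, with replicate 3 below and the others above HD-Control (log2 change 0.70, SE 0.35, adjusted p = 0.10, and 1.17 with adjusted p = 1.0e-04 without replicate 3). It passed as higher with the length and GC trend removed (log2 change 1.30, adjusted p = 0.0063) and with a weight per group (adjusted p = 0.024). Pcdhac1 had 502 in HD-WNT5B replicate 1 and was below 1 read in the other two, against 144, 172 and 143 in HD-Control libraries (adjusted p = 0.12, 5.8e-08 without replicate 1, and 0.011 with a weight per group).

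Pcdha7 and Pcdha1 were below 1 read in all 3 HD-WNT5B libraries, against 348, 344 and 351 for Pcdha7 and 179, 156 and 160.4 for Pcdha1 in HD-Control libraries (adjusted p = 8.0e-09 and 4.5e-08). No fold is given for them, because it would depend on the added 3. Pcdha6 had 318 in replicate 1 and was below 1 read in the other two, against 463, 414 and 412 in HD-Control libraries (adjusted p = 0.019, and 0.067 and 0.066 without HD-WNT5B replicate 2 or 3). Pcdha11 ENSMUSG00000102206 had 166 in replicate 2 and was below 1 read in the other two, against 209.9, 224 and 187 in HD-Control libraries (adjusted p = 0.021, and 0.073 and 0.071 without HD-WNT5B replicate 1 or 3, 0.051 and 0.053 without HD-Control replicate 1 or 2, and 0.053 over the 6 libraries of these groups). Every called fall in the alpha cluster was thus of a member below 1 read in at least 2 HD-WNT5B libraries.

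Members differed from all genes tested in transcript length, and the libraries differed in depth. A read was worth more in every HD-WNT5B library than in any other. Transcripts were longer for members (median 5350 bases for alpha, 3714 for beta and 4723 for gamma) than for all genes tested (3395). Across members, the rank correlation of transcript length with the log2 change was 0.20 for alpha, 0.22 for beta and 0.02 for gamma. With the trend on length and GC content removed per library, the median log2 change was -3.78 for gamma, -1.08 for beta and -3.07 for alpha members, against -0.15 over all genes. The part of depth and of the library's make-up in the values was not tested beyond this.

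Of the 21 genes of promoter choice and chromatin, 1 rose, 17 fell and 3 did not pass in HD-WNT5B against HD-Control libraries, where 35.8% of all genes rose and 41.7% fell. Smc3, a cohesin subunit, fell by 2.19 (SE 0.07, adjusted p = 7.3e-09), Setdb1, a histone methyltransferase that acts on the clusters in neurons, fell by 1.71 (SE 0.06, adjusted p = 1.4e-08), and Ctcf fell by 1.03 (SE 0.04, adjusted p = 2.1e-08). Of the 19 partners, 5 rose, 13 fell and 1 did not pass. Fyn, a Src-family kinase, fell by 1.70 (SE 0.04, adjusted p = 9.3e-10), Cyfip2, a WAVE complex subunit, fell by 1.71 (SE 0.05, adjusted p = 1.1e-08), and Marcks rose by 1.07 (SE 0.04, adjusted p = 2.9e-08).

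Of the 12 non-clustered protocadherins 8 fell, 0 rose and 4 did not pass, where 35.8% of all genes rose and 41.7% fell. Pcdh1 fell by 0.73 (SE 0.04, adjusted p = 5.9e-07), Pcdh7 fell by 1.41 (SE 0.09, adjusted p = 6.7e-07) and Pcdh11x fell by 1.03 (SE 0.06, adjusted p = 8.0e-07), smaller falls than the gamma median. Neighbouring genes on the chromosome went in both directions: of 22 tested, 11 rose, 6 fell and 5 did not pass. Ndufa2, a small subunit of mitochondrial complex I, rose by 6.17 (SE 0.06, adjusted p = 2.0e-11), Zmat2, a splicing factor, rose by 2.07 (SE 0.03, adjusted p = 1.3e-10), and Eif4ebp3, a translation repressor, rose by 3.77 (SE 0.16, adjusted p = 5.8e-08).

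In HD-WNT5B against HD-Control libraries 35.8% of all genes were higher and 41.7% lower. Neuron markers did not move in 1 direction, with 4 of 8 higher and 4 lower. Their summed value was 221303 to 233404 in HD-WNT5B and 290345 to 290848 in HD-Control libraries. Cortical excitatory neuron markers were 2 higher and 2 lower of 8 (19376.8 to 21539 in HD-WNT5B, 11507.5 to 11618 in HD-Control libraries). Striatal projection neuron markers were 3 higher and 4 lower of 8 (308418 to 322020 in HD-WNT5B, 348597 to 353140 in HD-Control libraries). Of 6 endothelium markers 5 were higher and 1 lower (42671 to 50909 in HD-WNT5B, 9339.7 to 9371.3 in HD-Control libraries). Of 8 microglia markers 4 were higher and 0 lower (28173 to 33677 in HD-WNT5B, 8678 to 8786 in HD-Control libraries). Of 8 oligodendrocyte markers 5 were higher and 3 lower (758258 to 805273 in HD-WNT5B, 339894 to 342333 in HD-Control libraries). Of 6 choroid plexus markers 3 were higher and 1 lower (12871 to 15626 in HD-WNT5B, 1736 to 1835 in HD-Control libraries). Of 8 astrocyte markers 2 were higher and 5 lower (88421 to 92773 in HD-WNT5B, 171808 to 173371 in HD-Control libraries). Their part in the lower protocadherin values was not tested.

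The third comparison, HD-WNT5B against WT-Control, asks whether values of the treated HD mice lie near those of wild-type mice. Gamma and most beta members were lower in HD-WNT5B libraries. The summed gamma value was 10920 ± 990 in HD-WNT5B and 63663 ± 595 in WT-Control libraries (SD, n = 3 each; log2 ratio -2.54), the beta value 5575 ± 243 in HD-WNT5B and 12624 ± 49.9 in WT-Control libraries (log2 ratio -1.18), and the alpha value 7661 ± 1231 in HD-WNT5B and 9164 ± 84.3 in WT-Control libraries (log2 ratio -0.26). With all libraries scaled to equal totals the gamma, beta and alpha ratios were -3.12, -1.76 and -0.84, a scale that moves the median of all genes by -0.55. In this comparison 44 members passed, all lower (7 alpha, 17 beta and 20 gamma), against 77.9% of all genes in either direction and 42.1% lower. None was higher by limma (35.9% of all genes were), and 0 had an unadjusted p < 0.05 with a higher value. With the length and GC trend removed 2 were higher (36.2% of all genes), Pcdha12 (log2 change 1.20, adjusted p = 0.0092) and Pcdhb22 (0.69, adjusted p = 1.5e-04). At least 2-fold lower and called were 43 (7 alpha, 16 beta and 20 gamma), against 29.4% of all genes. Over the 6 libraries of these groups 38 passed (5 alpha, 15 beta and 18 gamma), all lower, and with a weight per group 49 did. The share of all genes in these fits is not given here. HD-WNT5B libraries enter this comparison and the second, so the counts are not independent.

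For the members that differed between HD-Control and WT-Control, the HD-WNT5B values stood as follows. Pcdhb8, lower in HD-Control, was lower again in HD-WNT5B against WT-Control libraries (log2 change -1.91, SE 0.14, adjusted p = 2.2e-06). Pcdhb9, higher in HD-Control, had 737, 326 and 633 in HD-WNT5B libraries, against 772, 764 and 733 in WT-Control libraries (log2 change -0.50, SE 0.26, adjusted p = 0.11, and -0.73 with adjusted p = 0.024 without HD-WNT5B replicate 1). Pcdhb6 had 565, 485 and 495 in HD-WNT5B libraries, against 600.3, 581 and 571 in WT-Control libraries (log2 change -0.18, SE 0.11, adjusted p = 0.17, and -0.25 with adjusted p = 0.022 without HD-WNT5B replicate 1). Pcdhgc5 fell by 3.43 (SE 0.15, adjusted p = 6.3e-08).

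Pcdhgc4 was the 1 gamma member that did not pass, with 4074, 3700.4 and 7943 in HD-WNT5B libraries, against 6977, 6661 and 7116 in WT-Control libraries. HD-WNT5B replicate 3 lay above the WT-Control libraries and the other replicates below them (log2 change -0.49, SE 0.24, adjusted p = 0.098). Without that replicate the change was -0.83 (adjusted p = 2.7e-06), and with a weight per group the adjusted p was 0.019. Of the alpha C-types, Pcdhac2 did not pass (log2 change -0.31, SE 0.20, adjusted p = 0.18, and 0.27 in log2 change with the length and GC trend removed), and Pcdhac1 passed at adjusted p = 0.049, a call that ended without HD-WNT5B replicate 2 or 3 (0.16 in both cases) and without any 1 HD-Control or WT-Control library (0.068 to 0.10), over the 6 libraries of these groups (0.099) and with the length and GC trend removed (0.089).

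The other named gamma members fell. Pcdhgc3 fell by 3.20 (SE 0.27, adjusted p = 6.3e-06), Pcdhga6 fell by 3.44 (SE 0.10, adjusted p = 6.4e-09) and Pcdhgb2 fell by 3.07 (SE 0.21, adjusted p = 1.6e-06). In the beta cluster, Pcdhb20 fell by 1.61 (SE 0.09, adjusted p = 3.2e-07), Pcdhb17 fell by 1.90 (SE 0.12, adjusted p = 6.5e-07) and Pcdhb14 fell by 1.85 (SE 0.12, adjusted p = 8.3e-07). With the length and GC trend removed, the changes were -1.17 for Pcdhb20, -1.23 for Pcdhb17 and -0.50 for Pcdhb14 (adjusted p = 2.7e-06, 7.9e-06 and 0.0015). Pcdhb22 fell by 0.22 (SE 0.08, adjusted p = 0.032), a call that ended without WT-Control replicate 1 or 3 (0.13 and 0.093), without any 1 HD-Control library (0.058 to 0.059), over the 6 libraries of these groups (0.12) and with a weight per group (0.37). Pcdha7 and Pcdha1 passed again with values below 1 read in every HD-WNT5B library (adjusted p = 1.0e-08 and 2.8e-08). Pcdha11 ENSMUSG00000102206, with 166 in HD-WNT5B replicate 2 and below 1 read in the others, also passed (adjusted p = 0.010). Pcdha6 passed at adjusted p = 0.021, and did not without HD-WNT5B replicate 2 or 3 (0.075 and 0.074) or any 1 WT-Control library (0.051 to 0.052), or over the 6 libraries of these groups (0.053). Pcdha12 did not pass (log2 change 0.57, SE 0.35, adjusted p = 0.16, and 1.05 with adjusted p = 1.9e-04 without HD-WNT5B replicate 3).

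In the same comparison 1 of 21 genes of promoter choice and chromatin rose and 16 fell, 3 of 19 partners rose and 12 fell, 1 of 12 non-clustered protocadherins rose and 10 fell, and 12 of 22 tested neighbours rose and 4 fell, against 35.9% of all genes higher and 42.1% lower. Pcdh15, a hair-cell and photoreceptor protocadherin, had 222, 235 and 180.1 in HD-WNT5B libraries, against 1206, 1324 and 1279 in WT-Control libraries.

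Cell type markers also moved in HD-WNT5B against WT-Control libraries, where 35.9% of all genes were higher and 42.1% lower. Of 8 neuron markers 3 were higher and 4 lower, of 8 cortical excitatory neuron markers 1 was higher and 7 lower (summed value 19376.8 to 21539 in HD-WNT5B, 25400.4 to 26214 in WT-Control libraries), and of 8 striatal projection neuron markers 1 was higher and 6 lower. Of 8 astrocyte markers 2 were higher and 5 lower, of 8 oligodendrocyte markers 5 were higher and 3 lower, and of 8 microglia markers 2 were higher and 6 lower. Of 6 endothelium markers 3 were higher and 3 lower, and of 6 choroid plexus markers 5 were higher and 0 lower (12871 to 15626 in HD-WNT5B, 1660.2 to 1694 in WT-Control libraries). Their part in the lower protocadherin values was not tested.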

How the data were processed

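Poly(A) RNA of 9 mouse brain libraries was measured, 3 per group, grouped by the labels. The deposited signal values are 1 decimal number per protein-coding gene; reads were aligned with STAR to mm10, per the submitters' processing notes, and no source used here names the counting or normalizing program. Strand was not kept by the library kit that the labels name. Gene identifiers were matched to GENCODE M21. Low values fell on whole multiples of 1 step per library for 97.7 to 98.6% of genes (tolerance 0.01), which gave the value of 1 read and the read totals, so precision is lower in HD-WNT5B libraries.

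The design had planned a count test for raw counts; the values are normalized decimals, so log2 of the value plus 3 was fitted with limma 3.58.1 in R 4.3.3 (a mean per group, 9 libraries, 6 residual degrees of freedom, variance trend) over the 15411 genes with at least 10 in at least 3 libraries. Changes are differences of mean log2 values, and the added 3 understates them for low genes. Where replicates scatter, they can also exceed the ratio of group means or differ from it in direction. For Pcdha8 in HD-WNT5B against HD-Control the fitted log2 change was -1.18, while the ratio of means was 13.8. A gene passed when its limma p, after Benjamini-Hochberg adjustment across every tested gene, was under 0.05. SE are from that fit. The fit was checked on simulated data with known changes between HD-Control and WT-Control only, so the HD-WNT5B comparisons were not checked in this way. Sums, shares and ratios had no test. Figures used Python 3.11.15 and matplotlib 3.10.9.

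Named members were the C-types, the 2 highest means per cluster, every member called in HD-Control against WT-Control, and up to 3 rises and 3 falls with the smallest p per cluster and HD-WNT5B contrast among called members without overlap; of other lists, up to 3 called genes. The members, lists and tests were chosen with earlier results of these data known. Marker lists covered neurons, cortical excitatory, striatal projection and serotonin neurons, astrocytes, oligodendrocytes and their precursors, microglia, endothelium, choroid plexus, and olfactory bulb and cerebellum granule cells. Pcdhgb8 was not analysed here. Alternatives covered scale, filter, added constant, spread, a replicate block, the length and GC trend, and single libraries left out.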

Additional observations from a re-analysis of the deposited data

How the results depend on the processing

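Of the counts of members, that of HD-Control against WT-Control depended most on the processing: 4 as reported, 34 with a weight per group, 40 with the 6 libraries of the groups alone, and 3 to 13 with 1 library left out; all genes changed numbered 6957, 12779, 12908 and 5421 to 8949. The 9-library fit takes its spread in part from the HD-WNT5B libraries. The 6-library fit leaves that group out, and a weight per group lets each group have its own spread. Leaving out 1 HD-Control or WT-Control library keeps the HD-WNT5B spread in the fit. What moved the counts was not tested beyond these fits. For HD-WNT5B the count of members was 40 to 49 against HD-Control and 38 to 47 against WT-Control with 1 library left out, while 11063 to 12532 and 11210 to 12621 of all 15411 genes passed. The summed alpha ratio of HD-Control to WT-Control was -0.122 with equal totals, -0.158 with upper-quartile and -0.122 with trimmed-mean factors, the beta ratio -0.0066, -0.042 and -0.0063, and the gamma ratio 0.0079, -0.028 and 0.0082. With equal totals the ratios of HD-WNT5B to HD-Control were -0.72, -1.75 and -3.13, and to WT-Control -0.84, -1.76 and -3.12; the beta ratio to WT-Control was -1.25 with upper-quartile and -1.23 with trimmed-mean factors. With 1 library left out the summed ratios ranged, for HD-Control to WT-Control, from -0.106 to -0.0889 (alpha), 0.0166 to 0.0228 (beta) and 0.0284 to 0.0416 (gamma), for HD-WNT5B to HD-Control from -0.253 to -0.037, -1.22 to -1.16 and -2.65 to -2.52, and for HD-WNT5B to WT-Control from -0.349 to -0.133, -1.20 to -1.14 and -2.61 to -2.48. Pcdhb22 reversed to 0.56 against HD-Control and 0.69 against WT-Control without the length and GC trend, also with a replicate block, and Pcdhb6 to -0.24 against HD-Control with equal totals; the cause was not tested. With a replicate block 4, 46 and 43 members passed, and 6402, 11782 and 11891 of all genes; replicates of the same number in 2 groups deviated together with a correlation of -0.0225 to 0.0238, so the numbers do not pair the libraries. The 2 planned count tests were not run, because the values are not counts. Over all alternatives, the changes of the named members kept their direction and their side of the threshold in 380 cases for HD-Control against WT-Control, 387 for HD-WNT5B against HD-Control and 378 for HD-WNT5B against WT-Control; they crossed into it in 32, 11 and 11 cases, out of it in 6, 17 and 27, and reversed in 0, 3 and 2. At the depth of the HD-WNT5B libraries a member below 1 read cannot be told from an absent one.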

Other observations

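The remaining marker lists were read beside the clusters. Of all genes, 24.5% were higher and 20.7% lower in HD-Control against WT-Control libraries. In HD-WNT5B against HD-Control libraries 35.8% were higher and 41.7% lower. Oligodendrocyte precursor markers were 0 higher and 5 lower of 6 in HD-Control against WT-Control libraries, and 3 higher and 2 lower of 6 in HD-WNT5B against HD-Control libraries. Of 4 serotonin neuron markers 2 were tested, and their summed value was 33.7 to 94.8 in HD-WNT5B, 51.6 to 64.6 in HD-Control and 137 to 142 in WT-Control libraries. Of 5 olfactory bulb and cerebellum granule cell markers 3 were tested, with sums of 1105 to 1478 in HD-WNT5B, 447 to 490.4 in HD-Control and 393 to 465 in WT-Control libraries. Choroid plexus markers were 1 higher and 0 lower of 6 in HD-Control against WT-Control libraries. The 3 annotated genes that join exons of several clustered protocadherins (Gm37013, Gm37388 and Gm42416) had values of at most 9.8e-21 in every library.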
